A study of Eriocheir sinensis with 6 samples.

Results

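Sequence CM024160.1 of the published Chinese mitten crab (Eriocheir sinensis) genome carried 1852 of the 104657 merged peaks of accessible chromatin measured in muscle, and its members are all merged peaks deposited under that sequence name. They ran from base 828 to base 18869796 (18.9 Mb) and were linked by the authors' annotation to 294 of 17908 genes. Inside it, a window from 16.5 to 17.3 Mb held 177 peaks and was set apart in the choice of the sequence, because neighbouring stretches of the window changed in opposite directions between molt stages. The difference between stages in the window therefore chose the sequence. Its values are given as a description with no p-value, and the 1675 peaks outside it are read beside the share of all merged peaks that passed the same test.

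ATAC-seq, which reads out accessible chromatin from the places where the transposase Tn5 can insert adapters, was run on nuclei of muscle from 3 post-molt (stage A) and 3 pre-molt (stage D) crabs. The labels describe healthy farmed animals that differ in molt stage, with no genetic or drug treatment and one average weight for all, and the study's methods describe juveniles, walking-leg muscle and one crab per library. The comparison asks where accessibility of muscle chromatin differed after the shed from before it. The muscle identity could not be checked with marker genes, because the files pair gene identifiers with no gene names. In bulk tissue, fewer cells of a type and less open chromatin per cell cannot be told apart.

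Crustaceans grow by shedding a rigid exoskeleton, and the claw muscle of crabs is known to lose protein before the shed and to be rebuilt after it. Peaks of accessible chromatin mark DNA that is free of tightly packed nucleosomes: at gene starts they are promoters, and between genes or in introns they are often enhancers, elements that act on a promoter from a distance. Several enhancers of a gene often lie near each other and open or close together, so a run of neighbouring peaks that move the same way is a familiar form of regulatory change. The gene linked to a peak here is the one with the nearest start site, which need not be the gene it acts on.

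The 6 libraries held 41050903 to 51652893 reads, of which 10992785 to 16985168 lay in merged peaks. The share of reads in peaks was 23.82% to 27.89% in 5 libraries and 36.69% in pre-molt library 2. CM024160.1 took 137844 to 159069 reads in post-molt libraries and 142906 to 214606 in pre-molt libraries, or 1.23% to 1.32% of the reads in peaks. Accessibility is given in CPM, read counts scaled to a common library size with TMM factors, and a peak is said to have risen or fallen in post-molt muscle where edgeR's quasi-likelihood test over all 104657 peaks gave a Benjamini-Hochberg adjusted p below 0.05.

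On CM024160.1, 194 peaks (10.5%) rose and 83 peaks (4.48%) fell post-molt, whereas over all merged peaks 6.08% rose and 3.86% fell. These shares include the window, whose changes chose the sequence, and nothing is read from them. Over the 72 sequences with at least 500 peaks, the share that rose ranged between 1.66% and 11.6% (median 6.30%) and the share that fell between 1.39% and 8.03% (median 3.92%). The summed accessibility of the sequence was 12597, 12539 and 11514 CPM in the post-molt libraries and 12261, 15022 and 12432 CPM in the pre-molt libraries. The stages overlapped in this sum, so gains and losses stood beside each other with little change of the whole. Peak by peak, all 3 post-molt libraries lay above all 3 pre-molt libraries at 354 peaks, 271 of them outside the window (15.0% of all merged peaks did), and below them at 207 peaks, 179 of them outside the window (12.1% of all merged peaks did).

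**Figure D1:**
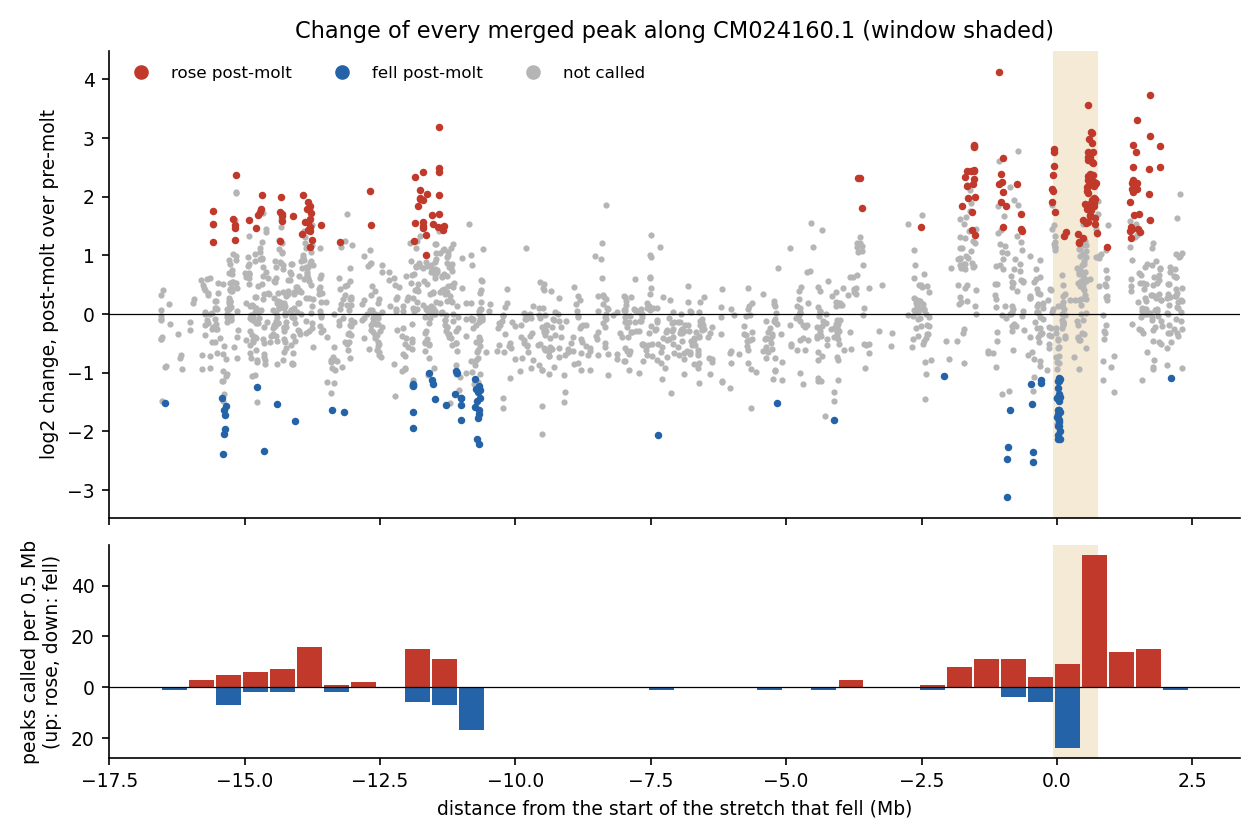
The upper panel plots the log2 change, post-molt over pre-molt, of each of the 1852 merged peaks of CM024160.1 against distance in Mb from the start of the stretch that fell (red, rose; blue, fell; grey, not called; shaded, the window), and the lower panel counts the called peaks per 0.5 Mb, those that rose upward and those that fell downward. Calls gather in clusters near both ends of the sequence, and few lie in the middle, where 3 of 512 peaks rose and 3 fell.

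In the window, 60 peaks rose and 24 fell, and the median log2 change of its 177 peaks was 0.67. Of the 1675 peaks in the rest of the sequence, 134 (8.0%) rose and 59 (3.52%) fell, and the median was 0.03. The window summed to 1741, 1649 and 1723 CPM in post-molt libraries and 1722, 2771 and 1802 CPM in pre-molt libraries. Only pre-molt library 2 stood apart, and the opposite changes inside the window were not visible in its sum.

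The changes in the window were ordered along the DNA. In its first 50 kb, 4 of 14 peaks rose and their median log2 change was 1.15. From 16.55 to 16.6 Mb, 19 of 28 peaks fell, with a median of -1.43, and from 16.6 to 16.65 Mb 5 of 9 fell. From 16.65 to 16.95 Mb, a span of 27 peaks, 3 rose and none fell. Beyond 17.1 Mb nearly all peaks rose: 16 of 16 from 17.1 to 17.15 Mb, 14 of 15 from 17.15 to 17.2 Mb, 11 of 12 from 17.2 to 17.25 Mb and 6 of 9 in the last 50 kb.

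**Figure D2:**
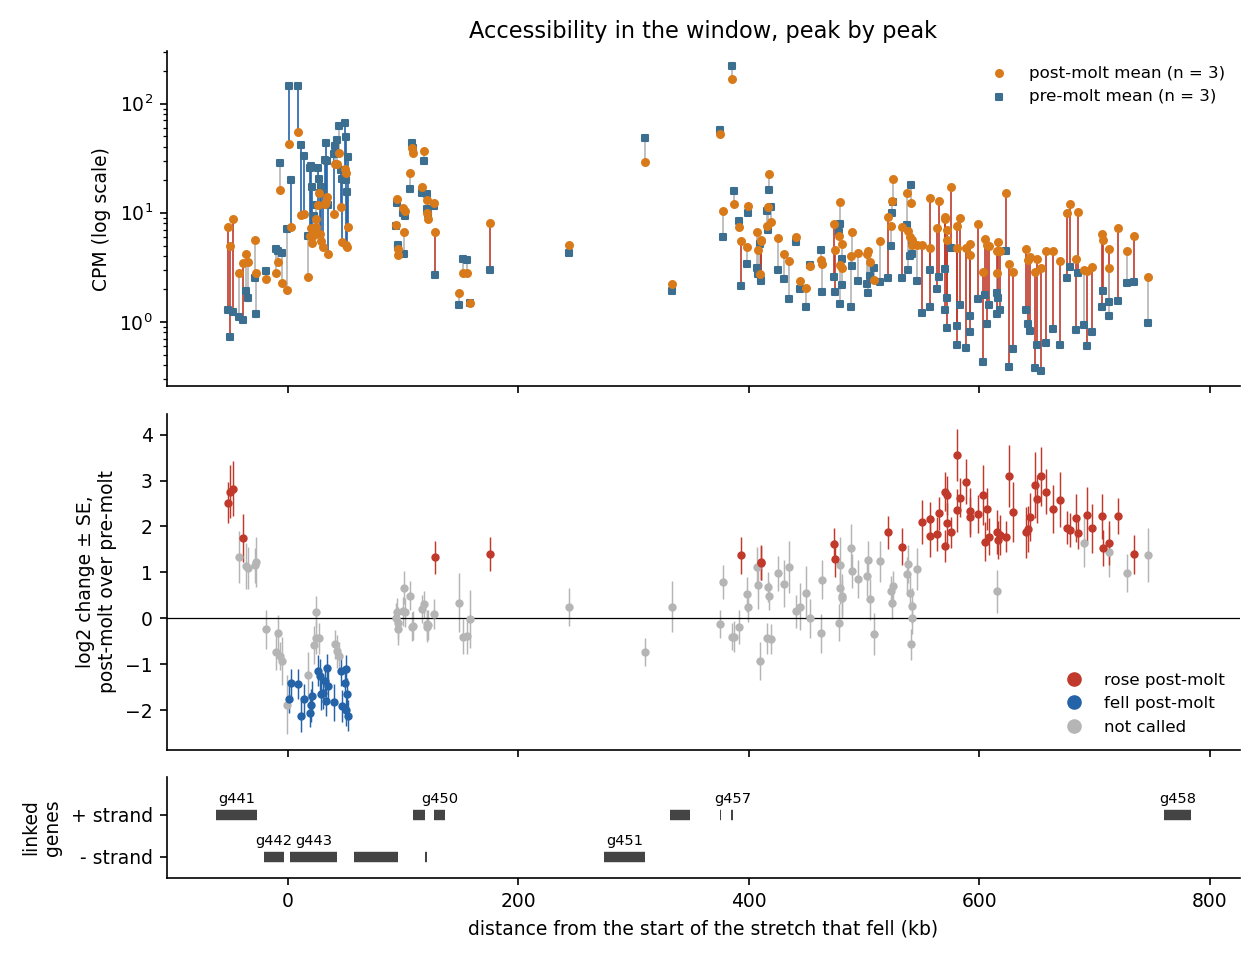
The upper panel shows the mean CPM of each window peak on a log scale (orange circles, post-molt; blue squares, pre-molt; 3 libraries each), the middle panel its log2 change with SE, and the lower panel the bodies of the linked genes by strand, all against distance in kb from the start of the stretch that fell. Blue points (fell) gather over the body and the upstream flank of g443, and red points (rose) gather in the part of the interval between g457 and g458 that is nearer to g458.

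A stretch was taken as a run of peaks called in 1 direction, with at most 10 kb between neighbouring called peaks and at least 5 calls. Stretches were thus picked on these same values, so separation of the stages in their sums is no further support. The stretch that fell spanned 16552524 to 16605384 (52.9 kb) and held 32 peaks, of which 24 fell and 31 had a log2 change below 0. Its summed accessibility was 449, 464 and 396 CPM in post-molt libraries and 846, 1564 and 923 CPM in pre-molt libraries. Post-molt muscle averaged 436 ± 35.9 CPM and pre-molt muscle 1111 ± 394 CPM (SD, n = 3 each), a log2 change of -1.35, or 2.55-fold more in pre-molt muscle. The stages did not overlap, and pre-molt library 2 was the highest.

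Most of this stretch was a single gene. The body of evm.TU.CM024160.1.443 (g443 below, and likewise for other genes of the sequence) covers 16554572 to 16595510 on the minus strand, and 22 peaks of the stretch lay in it, of which 16 fell. These 22 peaks summed to 258, 267 and 220 CPM post-molt and 476, 894 and 520 CPM pre-molt. Another 8 peaks lay up to 10 kb upstream of its start, and 7 of them fell, with sums of 126, 116 and 109 CPM post-molt and 241, 408 and 225 CPM pre-molt. Gene body and upstream flank therefore differed by similar amounts, with log2 changes of -1.34 and -1.32.

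None of the 3 promoter peaks of g443 passed the test, whereas 14 of 19 intron peaks, 7 of 7 distal intergenic peaks, 2 of 2 peaks of the 3' UTR class and the 1 exon peak fell. The promoter peak over the start site itself (16595055 to 16595674) had 28, 30.0 and 25.7 CPM post-molt and 25, 78.7 and 33.9 CPM pre-molt. The stages overlapped there, with a log2 change of -0.72 ± 0.36 (SE). The promoter peak 1.53 kb upstream (16597044 to 16597619) had 38, 32.5 and 34.2 CPM post-molt and 40.0, 92.3 and 54.2 CPM pre-molt, with a log2 change of -0.83 ± 0.32. Here all pre-molt values were higher, the lowest of them by a small margin. The difference between promoter and other peaks of the gene was not tested.

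The peaks that fell were strong ones. Their mean read count over the 6 libraries was 101 to 1287, which is the 72.5 to 99.5 percentile of all merged peaks. The strongest (16561083 to 16562050, 968 bp, an intron of g443) had 55.6, 54.2 and 53.3 CPM post-molt and 107, 220 and 113 CPM pre-molt, a log2 change of -1.43 ± 0.32. A wide peak at the 3' end of g443 (16552524 to 16554618, 2095 bp) had 36.7, 51.4 and 40.6 CPM post-molt and 105, 183 and 143 CPM pre-molt, a log2 change of -1.75 ± 0.31. In both, the lowest pre-molt library was about 2 times the highest post-molt library.

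Upstream of g443, the distal peak 16601442 to 16602312 had 24.9, 27.7 and 23.2 CPM post-molt and 59.5, 87.7 and 53.9 CPM pre-molt, a log2 change of -1.41 ± 0.30. The lowest log2 change in the window, -2.13 ± 0.34, was that of the intron peak 16563614 to 16563986, named after its value was seen. It had 9.81, 8.28 and 10.2 CPM post-molt and 36.5, 59.6 and 27.8 CPM pre-molt. No post-molt peak list and all 3 pre-molt lists called this peak, which held for 3 of the 24 peaks that fell (1.68% of all merged peaks). These 24 peaks were chosen by their fall in the same libraries, so nothing is read from this count.

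Pre-molt library 2, whose share of reads in peaks was 36.69%, was the highest of the 6 in 24 of the 24 peaks that fell. On a log2 scale it exceeded the mean of the other pre-molt libraries by 0.75 in these peaks, and by 0.35 in the 27944 peaks of other sequences within the same range of mean count, of which 9.06% fell. Without this library, 18 peaks of the stretch fell, where 2.51% of all merged peaks did, and its log2 change was -1.02. Leaving out other libraries gave 17 to 25 peaks that fell in the window, the fewest without post-molt library 3, where 2.04% of all merged peaks fell.

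The largest stretch that rose spanned 17102607 to 17182025 (79.4 kb) and began 497 kb beyond the end of the stretch that fell. Of its 28 peaks, 27 rose, and all 28 were distal intergenic. Their sum was 186, 155 and 234 CPM in post-molt libraries and 44.5, 48.4 and 41.4 CPM in pre-molt libraries. Post-molt muscle averaged 191 ± 40.3 CPM and pre-molt muscle 44.8 ± 3.49 CPM (SD, n = 3 each), a 4.28-fold or 2.10 log2 difference. The stages were far apart, and the post-molt libraries varied more among themselves than the pre-molt libraries did.

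**Figure D3:**
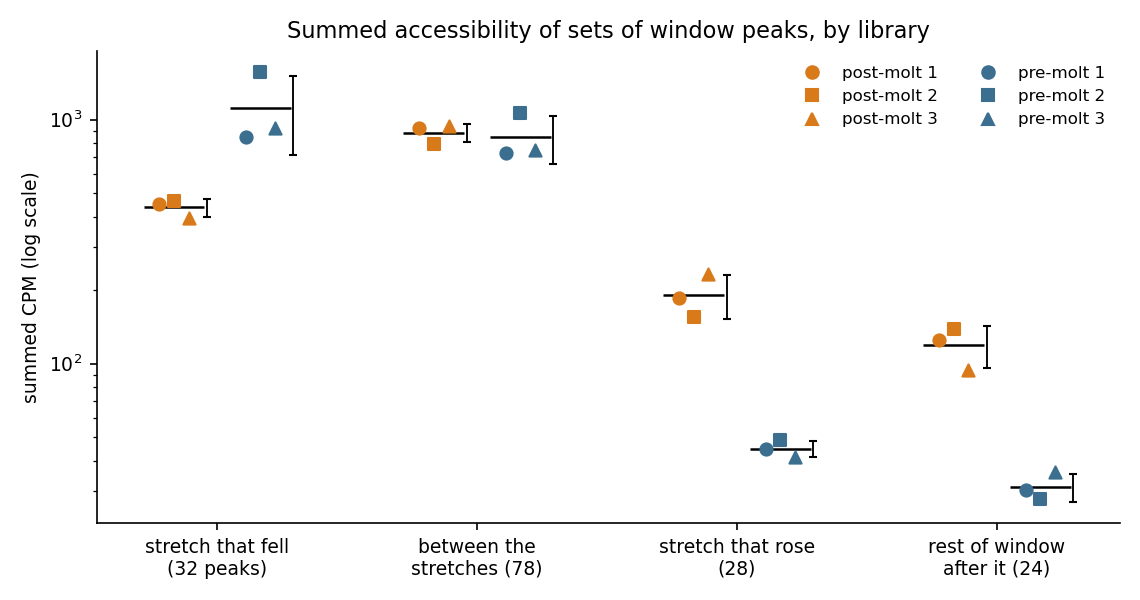
Summed CPM on a log scale in each library for 4 sets of window peaks (orange, post-molt; blue, pre-molt; circle, square and triangle for libraries 1, 2 and 3; line and bar, mean and SD, n = 3). The stretch that fell sits at 396 to 464 CPM post-molt and 846 to 1564 CPM pre-molt, the stages overlap between the stretches, and the stretch that rose sits at 155 to 234 CPM post-molt and 41.4 to 48.4 CPM pre-molt.

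The peaks that rose were weaker than those that fell, with mean read counts of 20.2 to 135. The strongest (17127393 to 17128366, 974 bp) had 13.9, 15.1 and 23.0 CPM post-molt and 3.65, 5.67 and 4.87 CPM pre-molt, a log2 change of 1.87 ± 0.34. The next (17175169 to 17176017) had 15.4, 15.1 and 15 CPM post-molt and 5.76, 3.15 and 4.35 CPM pre-molt, a log2 change of 1.78 ± 0.34. Its post-molt values were close to each other, and the stages were well separated in both peaks.

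Post-molt library 3 was the highest in 16 of the 27 peaks that rose. The peak 17109669 to 17110524 had 10.8, 9.22 and 20.4 CPM post-molt and 3.25, 3.57 and 2.17 CPM pre-molt, a log2 change of 2.16 ± 0.38. The peak 17117123 to 17117956 had 10.1, 11.1 and 17 CPM post-molt and 2.19, 3.08 and 2.52 CPM pre-molt, a log2 change of 2.29 ± 0.36. In both, library 3 was highest but the other post-molt libraries also exceeded every pre-molt library. Without post-molt library 3, 21 peaks of the stretch rose, where 4.75% of all merged peaks did, and its log2 change was 1.92.

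The fifth strongest peak (17122153 to 17122596) had 9.64, 7.25 and 10.6 CPM post-molt and 3.08, 2.73 and 3.39 CPM pre-molt, a log2 change of 1.58 ± 0.35. The highest log2 change in the window, 3.56 ± 0.56, was that of the peak 17133177 to 17133493, named after its value was seen, with 5.16, 4.10 and 13.6 CPM post-molt and 0.487, 1.19 and 0.174 CPM pre-molt. Its pre-molt values rest on 2 to 17 reads per library. Across the stretch, 24 of 28 peaks were called in no pre-molt peak list (25.8% of all merged peaks were not). All 24 were called in a post-molt list, without which they could have been missing from the merged table, and the stretch was chosen by its rise, so nothing is read from this count.

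A second stretch that rose followed from 17193050 to 17272811, with 19 of 21 peaks called and sums of 113, 120 and 86.0 CPM post-molt and 24.5, 22.1 and 30.4 CPM pre-molt. Its log2 change was 2.05, close to that of the larger stretch, and post-molt library 3 was here the lowest post-molt library. Both stretches lie in the interval between the end of g457 and the start of g458, from 16938931 to 17312351 (373 kb), in which 103 peaks were measured, 54 rose, none fell and 93 had a log2 change above 0. The interval summed to 654, 580 and 735 CPM post-molt and 321, 367 and 289 CPM pre-molt. The stages were apart in this sum, but most calls lay in the 2 stretches. Before them, 7 of the 50 peaks of the interval rose, with a median log2 change of 0.67, and these 50 peaks summed to 337, 282 and 405 CPM post-molt and 246, 290 and 209 CPM pre-molt, where the stages overlapped.

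Between the stretch that fell and the first that rose, 78 peaks summed to 920, 795 and 939 CPM post-molt and 729, 1064 and 748 CPM pre-molt, with 9 peaks that rose and none that fell. The stages overlapped in this sum. The strongest peak of the whole sequence lies here, over the start of g457 (16936503 to 16939300, 2798 bp), and had 180, 144 and 179 CPM post-molt and 186, 311 and 165 CPM pre-molt, a log2 change of -0.40 ± 0.30. It did not pass the test, while distal peaks that follow it rose.

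The edges of the window did not coincide with an edge of the changes. The last peak before it (16490628 to 16490890) had a log2 change of 1.52 and the first inside it (16500303 to 16500727) 2.52. At the other end, the last peak inside (17298360 to 17298676) had 1.37 and the first after it (17308736 to 17309146) 1.71. All 4 were higher post-molt, and only the first inside it passed the test.

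Read counts summed over the peaks linked to a gene were compared for all 17908 genes, again with edgeR. On CM024160.1, 25 of 294 genes rose (8.50%; 6.90% of all genes did) and 13 fell (4.42%; 4.11% of all genes did). Of the 14 genes with a window peak, 2 rose and 2 fell. In these 4 genes the called peaks all moved 1 way.

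Gene g458, on the plus strand at 17312352 to 17336138, had 45 linked peaks, 44 of them distal intergenic, and 38 rose. Its linked peaks summed to 256, 244 and 245 CPM post-molt and 62.2, 55.7 and 60.6 CPM pre-molt, a log2 change of 2.06 ± 0.22. Both stages varied little and were far apart. Its own promoter peak did not pass the test, with a log2 change of 1.93 and a mean of only 16.7 reads per library.

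Gene g443 had 25 linked peaks, 18 of which fell, with sums of 323, 323 and 283 CPM post-molt and 562, 927 and 526 CPM pre-molt (log2 change -1.12 ± 0.25). Gene g442, its neighbour at 16531735 to 16549065, had 15 linked peaks, 6 of which fell, with 167, 184 and 170 CPM post-molt and 395, 579 and 400 CPM pre-molt (log2 change -1.40 ± 0.23). The stages did not overlap in either gene. The peaks of g442 that fell lay beyond its start, in and at the end of g443, and were linked to g442 only because its start site was nearer.

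Gene g441, the first of the window at 16490285 to 16526190, moved the opposite way. Its 13 linked peaks, 6 of which rose, summed to 73.1, 102 and 84.7 CPM post-molt and 51.5, 51.4 and 19.9 CPM pre-molt, a log2 change of 1.08 ± 0.31. The stages did not overlap. The end of g441 and the start of the stretch that fell lie within 30 kb of each other, with g442 between them. No peak in the body of g442 passed the test.

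The remaining 5 genes with at least 3 window peaks did not pass the test. Gene g457 had 60 linked peaks, of which 16 rose, and summed to 585, 492 and 714 CPM post-molt and 474, 573 and 375 CPM pre-molt. Its stages overlapped (log2 change 0.33 ± 0.24), and on its promoter-class peaks alone the log2 change was -0.32. Genes g446, g448, g449 and g450 had log2 changes of 0.21, 0.05, 0.17 and 0.45, with SEs of 0.20 to 0.24, and the 2 peaks that rose among them were both linked to g450.

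**Figure D4:**
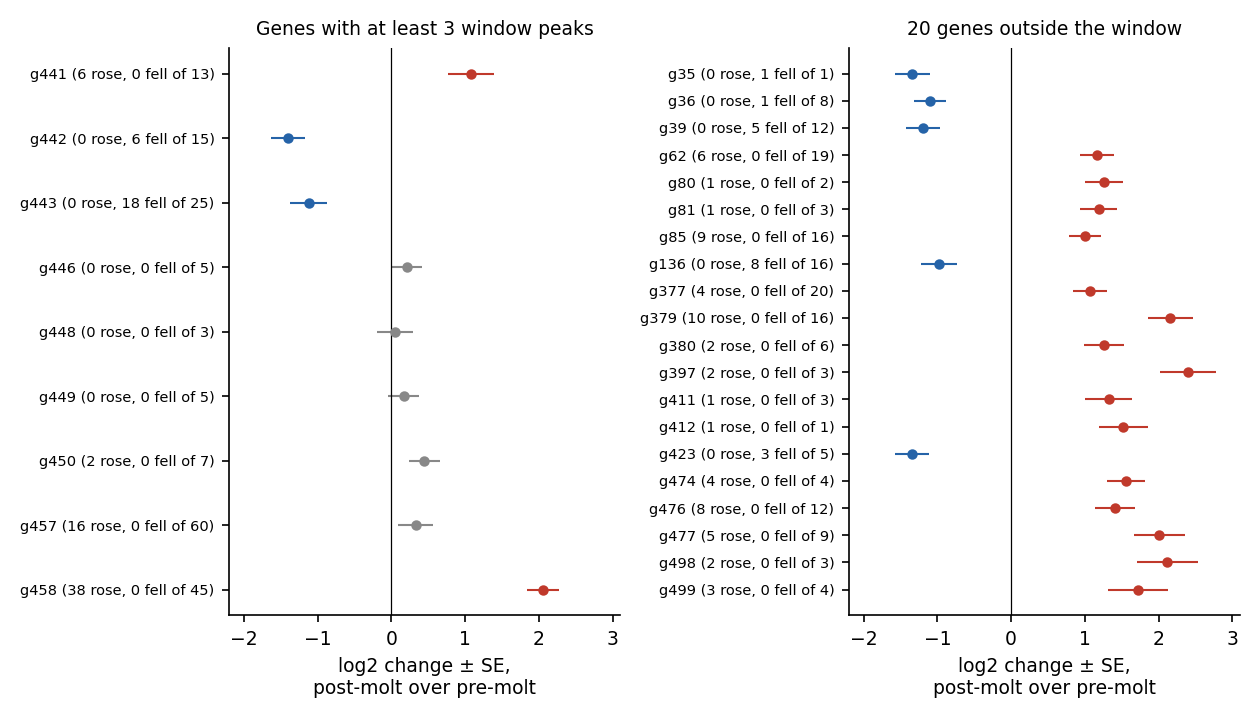
Log2 change with SE of the reads summed over the peaks linked to each gene, for the 9 genes with at least 3 window peaks (left) and the 20 genes with no window peak that had the smallest p (right), in order along the sequence from top to bottom (red, rose; blue, fell; grey, not called; in brackets, the linked peaks that rose and fell of all linked peaks). In the window, g442 and g443 lie near -1 while g458 lies near 2, and outside it 15 of the 20 genes are above 0.

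Outside the window, calls were uneven along the sequence. From 0 to 6 Mb, 66 of 756 peaks rose and 44 fell (8.73% and 5.82%). From 6 to 14 Mb, 3 of 512 peaks rose and 3 fell (0.586% each), and the median of their log2 changes was -0.25. From 14 Mb to the window, 35 of 234 rose and 11 fell (15.0% and 4.70%), and after the window 30 of 173 rose and 1 fell (17.3% and 0.578%).

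The quiet middle was nonetheless slightly lower post-molt in its sum. Its 512 peaks summed to 2106, 2135 and 2132 CPM post-molt and 2541, 2338 and 2572 CPM pre-molt. A log2 change below 0 was found in 356 of them, and in 54085 of all 104657 merged peaks. The stages did not overlap, with a log2 change of -0.23 in the sum, which is small beside those of the stretches. These borders were drawn after the calls were seen, so the difference carries no test.

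Outside the window, calls were counted by peak class, with no test between classes. Of 314 promoter peaks, 15 rose and 8 fell (4.78% and 2.55%). Of 237 intron peaks, 28 rose and 7 fell (11.8% and 2.95%). Of 995 distal intergenic peaks, 83 rose and 44 fell (8.34% and 4.42%). Of 94 exon peaks, 8 rose (8.51%) and none fell. Shares by class over all merged peaks were not determined, so no difference between classes is read as a trait of this sequence. Below the median read count of these peaks, 47 of 835 rose and 5 fell, and above it 87 of 840 rose and 54 fell. Over all merged peaks the same count divided 4.58% that rose and 0.794% that fell below it from 7.05% and 5.85% above it, so calls of both directions were more frequent among strong peaks in the whole series.

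One library weighed on the peaks that rose. Post-molt library 2 was the highest of the 6 in 98 of the 134 peaks outside the window that rose, and pre-molt library 2 in 34 of the 59 that fell. Without post-molt library 2, 101 peaks of the sequence rose and 47 fell, where 2.29% and 1.53% of all merged peaks did, and outside the window 55 rose and 29 fell. In the window 46 rose and 18 fell without it. The window was chosen for its changes in all 6 libraries, so its counts are not compared with those outside it.

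By the same definition the sequence held 11 stretches, 8 that rose with 83 peaks called and 3 that fell with 35. Besides the 3 in the window, there were 5 between 2.75 and 5.9 Mb, 1 near 15 Mb and 2 near 18 Mb. Stretches were not counted on other sequences, so their number is not read as particular to this one.

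**Figure D5:**
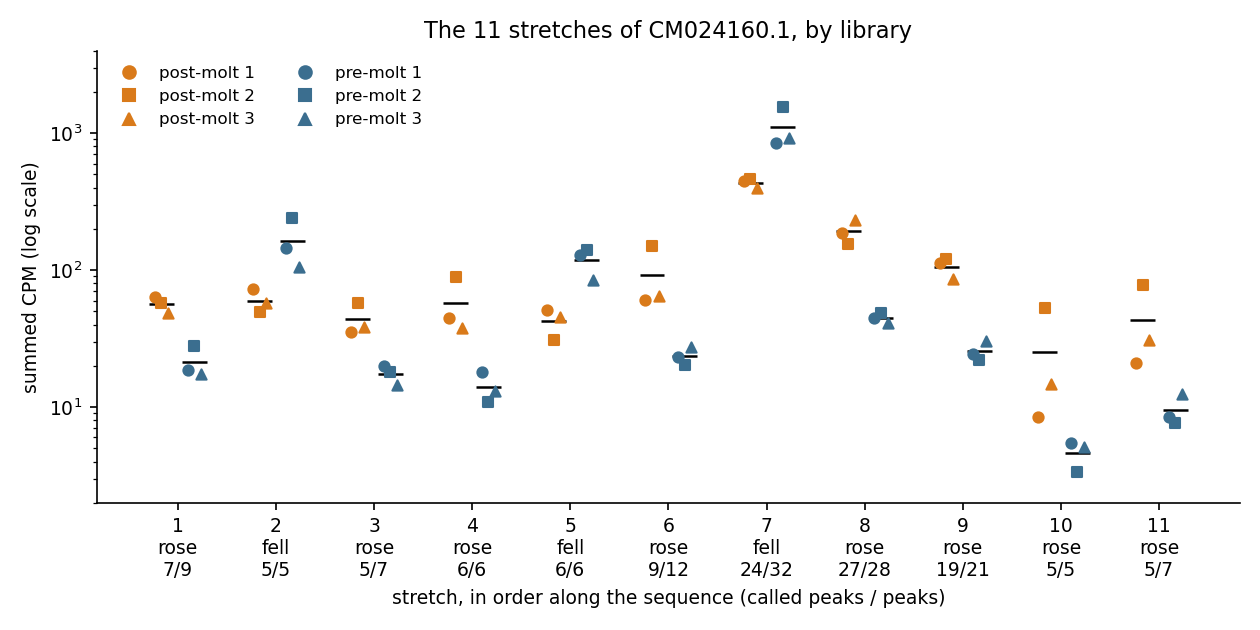
Summed CPM on a log scale of the 11 stretches of CM024160.1 in each library (orange, post-molt; blue, pre-molt; circle, square and triangle for libraries 1, 2 and 3; line, mean of 3), with the direction and the called peaks of all peaks under each. Stretches 7, 8 and 9 lie in the window, and in stretches 10 and 11 post-molt library 2 is far above the other libraries.

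Opposite neighbours were also found at g119, which is named after its values were seen. It had 53 linked peaks, of which 12 rose and 5 fell. The 5 that fell made up a stretch at 4653054 to 4657926, with 72.9, 49.9 and 57.2 CPM post-molt and 146, 240 and 106 CPM pre-molt (log2 change -1.45). A stretch that rose lay at 4839148 to 4847860, with 35.6, 58.0 and 38.6 CPM post-molt and 19.8, 18.1 and 14.6 CPM pre-molt (log2 change 1.33). The gene as a whole averaged 503 ± 35.9 CPM post-molt and 512 ± 134 CPM pre-molt (SD, n = 3 each), a log2 change of -0.02. Without post-molt library 2, 2 of the 5 called peaks of the stretch that fell and 1 of the 5 of the stretch that rose passed the test. In all, 38 genes had at least 2 called peaks, which all rose in 24 genes, all fell in 8 and moved both ways in 6. These counts include genes of the window, and no share over all genes was taken, so nothing is read from them.

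Further along, a stretch linked to g120 (5132482 to 5146902, 6 of 6 peaks) rose with 45.0, 89.3 and 37.5 CPM post-molt and 18.1, 10.9 and 13.1 CPM pre-molt. A stretch linked to g136 and g137 (5884875 to 5892638, 6 of 6 peaks) fell with 51.2, 30.9 and 45.4 CPM post-molt and 128, 141 and 84.8 CPM pre-molt. The first of the sequence, linked to g85 and g86 (2750063 to 2771456, 7 of 9 peaks), rose with 63.9, 57.9 and 48.8 CPM post-molt and 18.7, 27.9 and 17.5 CPM pre-molt. Without post-molt library 2, only 3 of the called peaks passed the test in each of these 3 stretches.

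Outside the window, a stretch linked to g379 and g380 covered the body of g379 (15006939 to 15042161). In it, 9 of 12 peaks between 15005792 and 15043757 rose. The promoter peak of g379 (15005792 to 15006639) had 10.3, 22.9 and 10.4 CPM post-molt and 2.76, 2.73 and 3.91 CPM pre-molt, a log2 change of 2.21 ± 0.38 (edgeR adjusted p = 0.00114, n = 3 each). An intron peak at 15022543 had 5.6, 14.7 and 5.18 CPM post-molt and 0.892, 1.19 and 1.39 CPM pre-molt, a log2 change of 2.87 ± 0.46 (edgeR adjusted p = 0.000614). Another intron peak at 15013605 had a log2 change of 2.88 ± 0.48, and a further one at 15023713 had one of 2.45 ± 0.46 (edgeR adjusted p = 0.000809 and 0.00208). In each of these peaks post-molt library 2 was the highest, and the other post-molt libraries also lay above all pre-molt libraries.

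Summed over its 16 linked peaks, g379 had 60.8, 141 and 68.9 CPM post-molt and 20.5, 16.9 and 23.1 CPM pre-molt, a log2 change of 2.16 ± 0.30 (edgeR adjusted p = 0.00079). Without post-molt library 2 it was 1.69 (edgeR adjusted p = 0.000228). The promoter peak of g397 (15486060 to 15487308) had 17.7, 49.8 and 19.3 CPM post-molt and 6.57, 4.48 and 7.57 CPM pre-molt, a log2 change of 2.22 ± 0.39 (edgeR adjusted p = 0.00133). Its 3 linked peaks gave a log2 change of 2.40 ± 0.38, and of 1.74 without post-molt library 2 (edgeR adjusted p = 0.00141 and 0.000741). In both genes the promoter peak rose as the sum of the linked peaks did, and post-molt library 2 was more than 2 times as high as any other library.

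The 5 peaks outside the window with the smallest p among those that fell were all distal intergenic. A pair linked to g403 led them. The peak 15625498 to 15626019 had 1.03, 1.5 and 2.09 CPM post-molt and 17.6, 13.4 and 9.22 CPM pre-molt, a log2 change of -3.11 ± 0.40 (edgeR adjusted p = 0.000107). The peak 15627645 to 15628139, which follows it, had 3.70, 3.86 and 2.42 CPM post-molt and 21.7, 14.6 and 19.1 CPM pre-molt, a log2 change of -2.47 ± 0.35 (edgeR adjusted p = 0.000253). Neither had a high library that set the difference, and the pair lies in the same 0.5 Mb as 11 peaks that rose.

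The other 3 were linked to g36, g136 and g39. The peak 1148427 to 1149237 had 3.36, 3.0 and 2.34 CPM post-molt and 9.74, 15.7 and 19.8 CPM pre-molt, a log2 change of -2.38 ± 0.36 (edgeR adjusted p = 0.000494). The peak 5848163 to 5848688 had 4.48, 4.49 and 4.34 CPM post-molt and 14.7, 25.8 and 17.7 CPM pre-molt, a log2 change of -2.13 ± 0.34 (edgeR adjusted p = 0.000593). The peak 1177446 to 1178416 had 3.53, 4.73 and 5.43 CPM post-molt and 15.7, 23.7 and 17.3 CPM pre-molt, a log2 change of -2.05 ± 0.34 (edgeR adjusted p = 0.00077). Stages were apart in each, and 0 to 2 of the post-molt lists called them while all 3 pre-molt lists did.

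Of the 4 strongest peaks outside the window, 1 passed the test. At the promoters of g69 (2404946) and g307 (11749552) and at a distal peak linked to g120 (4915008), log2 changes were -0.52 ± 0.31, -0.60 ± 0.30 and -0.42 ± 0.31, with no call (edgeR adjusted p = 0.318, 0.232 and 0.453). The promoter peak of g129 (5454733 to 5456244) fell, with 73.9, 76.4 and 71.5 CPM post-molt and 150, 172 and 110 CPM pre-molt, a log2 change of -0.96 ± 0.29 (edgeR adjusted p = 0.0375). That call held in 6 of 15 alternative settings, where the adjusted p ranged between 0.00443 and 0.184.

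Of the 280 genes with no window peak, 23 rose (8.21%) and 11 fell (3.93%). The 20 with the smallest p had adjusted p-values of 0.00079 to 0.0168 by edgeR, and 15 of them rose. Among those that rose were g474 (34.9 ± 12.6 CPM post-molt, 11.8 ± 1.64 CPM pre-molt, log2 change 1.56 ± 0.26, edgeR adjusted p = 0.00219) and g62 (107 ± 5.70 CPM post-molt, 47.4 ± 12 CPM pre-molt, log2 change 1.17 ± 0.23, edgeR adjusted p = 0.00525). In g474 all 4 linked peaks rose, whereas in g62 6 of 19 did. On promoter-class peaks alone g62 was not called (log2 change 0.38, edgeR adjusted p = 0.371).

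Toward the end of the sequence, g476, g477, g498 and g499 rose together with log2 changes of 1.41, 2.01, 2.12 and 1.72, and post-molt library 2 was the highest library in each. Gene g477 had 31.0, 87.1 and 32.8 CPM post-molt and 14.9, 10.1 and 12.5 CPM pre-molt (edgeR adjusted p = 0.00242), and without post-molt library 2 its log2 change was 1.36 (edgeR adjusted p = 0.0023). Gene g499 had 7.88, 31.7 and 11.1 CPM post-molt and 5.23, 4.48 and 5.74 CPM pre-molt (edgeR adjusted p = 0.0143), and without post-molt library 2 it did not pass (log2 change 0.89, edgeR adjusted p = 0.149). Its call was also lost without pre-molt library 2 or pre-molt library 3 (edgeR adjusted p = 0.0890 and 0.0589). The 2 stretches here behaved alike: the 5 called peaks linked to g476 at 17950942 to 17958218 summed to 8.44, 52.7 and 14.8 CPM post-molt and 5.44, 3.36 and 5.13 CPM pre-molt, and 0 of them passed without post-molt library 2. In the stretch linked to g477 and g478, 1 did.

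Other genes that rose were g80, g81, g85, g377, g380, g411 and g412, with log2 changes of 1.00 to 1.52. Calls of g411, g412 and g499 were lost without post-molt library 2, with adjusted p-values of 0.102, 0.053 and 0.149. Those that fell were g35, g36, g39, g136 and the gene joined as evm.TU.CM024160.1.423_evm.TU.CM024160.1.422, with log2 changes of -1.34, -1.10, -1.20, -0.98 and -1.34. The call of g136 was lost without post-molt library 2, post-molt library 3 or pre-molt library 1, with adjusted p-values of 0.0909, 0.0712 and 0.0505 by edgeR. The joined gene had 71.2, 79.7 and 68.6 CPM post-molt and 234, 163 and 158 CPM pre-molt, and 3 of its 5 peaks fell (edgeR adjusted p = 0.00244). The single linked peak of g35 had 30.6, 30.6 and 31.2 CPM post-molt and 58.2, 103 and 73.0 CPM pre-molt (edgeR adjusted p = 0.00303). In both, post-molt libraries were near each other and well below every pre-molt library.

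The study's own list of genes that differ in expression and accessibility between adjacent molt stages held 14 genes of this sequence, and all 14 had a linked peak. By summed accessibility, g379, g397, g398, g411, g441 and g474 rose and the joined gene fell (6.90% and 4.11% of all genes did). Gene g441 has peaks in the window, whose changes chose the sequence. Gene g398 had 46.8, 93.9 and 48.2 CPM post-molt and 41.5, 16.1 and 25.8 CPM pre-molt, a log2 change of 1.18 ± 0.33 (edgeR adjusted p = 0.0312). Its call was lost without post-molt library 2, pre-molt library 2 or pre-molt library 3, with adjusted p-values of 0.131, 0.124 and 0.129 by edgeR, and that of g411 also without pre-molt library 1 or pre-molt library 2 (edgeR adjusted p = 0.0561 and 0.0628). That list was chosen in part on these libraries, so its count is not independent evidence of direction.

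The peak lists called separately in each library gave 789, 864 and 822 regions on CM024160.1 post-molt and 765, 773 and 806 pre-molt, a difference of means of 43.7 with overlapping stages. The names of the peaks inside these lists give the same stage as the sample titles but another library number, and each list was taken for the sample it was deposited under. In the window they gave 82, 82 and 90 regions post-molt and 46, 77 and 54 pre-molt. The largest stretch that rose had 11, 12 and 18 called regions post-molt and 1, 2 and 1 pre-molt. The stretch that fell had 18, 15 and 11 regions post-molt and 18, 24 and 18 pre-molt, covering 4.67 to 6.21 kb post-molt and 7.50 to 12.1 kb pre-molt. Post-molt lists thus still held regions in that stretch. Both stretches were chosen by their change in these libraries, so nothing further is read from these counts.

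Of the merged peaks of the sequence, 43 carried a call in all 3 post-molt lists and in no pre-molt list (1.40% of all merged peaks did), and 31 the reverse (1.68% of all merged peaks did), 36 and 26 of them outside the window. All 6 lists called 267. Presence of a call thus seldom divided the stages completely, even where read counts differed.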

How the data were processed

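ATAC-seq libraries of 3 post-molt and 3 pre-molt crabs were grouped by the sample titles. The members, lists and stretch definition were chosen with earlier results of these data known. The submitters' processing notes name BWA and MACS2. A shift of reads for the Tn5 offset, the merging of lists and the counting are steps whose settings were not given in the sources used here. The study's methods describe duplicates being kept for its molt-stage libraries. If that held here, PCR copies count as reads. The authors deposited whole-number read counts per merged peak, which were tested unfiltered. The authors also deposited RPM, which equals count plus 1 scaled per library (largest deviation 0.000498%), and fold enrichment, a ratio of RPM per base over a uniform background. Deposited peak lists give a MACS2 score, a fold enrichment and -log10 of p- and q-values (smallest -log10 q 1.30); entries that differed only in summit were collapsed. Deposited log2 fold changes, p-values and q-values of the authors' own stage comparison were not used. Library totals were recovered from RPM. Columns of other series numbered 0.

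The test was edgeR 4.0.16 (R 4.3.3) with TMM factors, a model of stage only and a Benjamini-Hochberg adjusted p below 0.05 over all peaks or all genes, and was tested on simulated data. Each standard error is the size of the log2 change over the root of its F statistic. Accessibility in CPM uses TMM-scaled library sizes, and fitted log2 changes used edgeR's default prior count. A prior count of 2 was used only for median centring, loess offsets and the correlations between replicates. Coordinates are 1-based on the published genome, and promoter-class peaks reach 3000 bp from a start site. Named genes were those with at least 3 window peaks, the 20 called genes with the smallest p outside it and called genes of the study's list. Named peaks were the 5 with the most reads in each of the 2 main stretches and on the sequence, and outside the window the 5 that rose and 5 that fell with the smallest p at a mean count of at least 50. Alternatives were other scalings, DESeq2 1.42.0, limma 3.58.1 on log2(fold enrichment + 1) and + 0.1, a filter, a replicate block, gaps of 5 and 20 kb, linked peaks within 50 kb or of promoter class, an adjusted p of 0.01, leaving out each library and, chosen after seeing the data, loess offsets on mean count. Chi-square over degrees of freedom was 5.66 to 18.61 between libraries of 1 stage, far from duplicates. Tables were handled in Python 3.11.15 with pandas 2.3.3 and drawn with matplotlib 3.10.9.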

Additional observations from a re-analysis of the deposited data

How the results depend on the processing

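The 277 called peaks became 148 to 248 when 1 library was left out (101 to 173 rose, 47 to 82 fell): without post-molt library 2, 101 rose and 47 fell, without post-molt library 3 49 fell, and without pre-molt library 3 118 rose. At an adjusted p below 0.01 there were 140 (96 rose, 44 fell). The 84 calls in the window became 62 to 72 (42 to 50 rose, 17 to 25 fell), and 54 at 0.01 (36 rose). The 38 called genes became 21 to 35 (15 to 26 rose, 6 to 11 fell): 21 without post-molt library 2 (15 rose, 6 fell), 23 without pre-molt library 3 (15 rose, 8 fell) and 6 that fell without post-molt library 3. With library totals 23 genes were called (15 rose, 8 fell), with promoter-class peaks 18 (12 rose, 6 fell), and at 0.01 19 (14 rose, 5 fell). Log2 changes of the stretches were -1.51 to -1.02 and 1.92 to 2.23 with a library left out. With 20 kb gaps the stretch that rose reached 17073289 to 17286795 with a log2 change of 1.47, and the stretch that fell was unchanged. With 5 kb gaps both were shorter: the largest that fell was 16578940 to 16592490 (13.6 kb, 9 called peaks, log2 change -1.35). The largest that rose was then 17109346 to 17144866 (35.5 kb, 15 called peaks, log2 change 2.22). The difference in called regions was 24.2 to 61.7 with a library left out and -21.3 at a -log10 q of at least 5. Peaks 2404946 and 4915008, neither called, reached 0.00 and 0.10 with loess offsets, under which 163 peaks rose and 79 fell (5.34% and 3.60% of all merged peaks). DESeq2 called 208 that rose and 95 that fell (6.48% and 5.10%). Of 35 named results outside the window, 6 lost their call without post-molt library 2, 6 with promoter-class peaks alone and 4 with library totals. Other scalings moved the median log2 change of all peaks from -0.029 to -0.068 at most. The cause of these shifts was not tested.

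Libraries that share a replicate number did not vary together (r = -0.088, -0.104 and -0.033). With 3 libraries per stage these values cannot exclude a pairing, but the study's methods describe separate crabs for each stage. With the replicate block, 183 peaks rose and 73 fell (256 in all), 58 and 21 of them in the window (79 in all), and 24 genes rose and 11 fell (35 in all).

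With 3 crabs per stage, the spread between libraries limits these comparisons more than depth does at strong peaks. The study's methods describe a separate crab for each library, so differences between animals and between library preparations cannot be told apart. The source of the spread was not tested. Weak peaks of the stretch that rose rest on 20.2 to 135 reads on average, and the reads of pre-molt libraries at some of them number fewer than 20.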
